A study of Capra hircus with 4 samples.

Results

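The extracellular matrix genes described here are 45 genes that encode collagens, basement membrane proteins, elastic fibre proteins, small proteoglycans, adhesive proteins, and enzymes or inhibitors that turn the matrix over. They were chosen by symbol from the deposited feature list, which holds 27137 genes, and all 45 were found there. Their transcripts were counted in single cells of goat pancreas. The labels describe 4 pancreas samples from female twin goats, 2 aged 10 days and 2 aged 6 months, and name no treatment or genotype; an age before and an age after the start of rumination is the contrast that the study set up. Minced tissue was digested with collagenase IV, dispase and DNase I, red blood cells and dead cells were removed, and libraries were made with the 10x Genomics 3′ kit, version 3, so cells that do not survive digestion are not in the data.

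The matrix is the protein scaffold between cells. Fibroblasts, which in the pancreas include the stellate cells around the acini, make most of its fibrillar collagen and proteoglycans, whereas basement membranes, the thin sheets under epithelium and endothelium, are laid down from both sides by several cell types. Cross-linking enzymes of the lysyl oxidase family fix collagen and elastin in place, metalloproteinases cut them, and the TIMP proteins inhibit the metalloproteinases.

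The deposited matrix holds 4 libraries, numbered 1 to 4, and which number belongs to which goat, or to which age, is not stated in the labels. Values are therefore given per library, in the order 1, 2, 3, 4 unless stated otherwise, with no age comparison, no test and no p-value. The libraries held 43297855, 82817057, 65937591 and 55223412 unique molecular identifiers (UMIs, 1 per captured transcript), and after doublet removal 2746, 3160, 3902 and 2933 cells remained, of which pairs of libraries shared between 0 and 6 barcodes before that step. Cells were clustered without the matrix genes, and clusters were named from fixed markers. The names are rebuilt here, so "fibroblast-like" means a cluster with raised fibroblast markers. Libraries stood apart within that class, where each cluster came mostly from 1 library.

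UMIs were summed over the cells of a class in a library and expressed as counts per 1000000 UMIs of that class and library (CPM). Fibroblast-like cells numbered 1260, 1047, 1706 and 974, endothelial-like cells 130, 96, 37 and 59, and ductal-like cells 49, 116, 206 and 11. Mesothelial-like cells, from the sheet that covers the organ, were found in library 3, with 32 cells, and library 4, with 96. No cluster was named pericyte or smooth muscle under the main settings. A class with fewer than 20 cells in a library gives no value there, which leaves out the ductal-like cells of library 4.

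The markers that named the classes were then summed per class, so a high sum in the named class follows from the naming rule. The summed level of 17 fibroblast markers was 7693, 6493, 5681 and 13020 CPM in fibroblast-like cells and 931, 1661, 1080 and 798 CPM in endothelial-like cells. The 11 endothelial markers summed to 5752, 5279, 5236 and 5052 CPM in endothelial-like cells and to 13.9, 7.44, 6.48 and 4.94 CPM in fibroblast-like cells. Endothelial markers were thus rare in fibroblast-like cells. In endothelial-like cells the fibroblast marker sum was close to that of cell-free barcodes, which hold 10 to 100 UMIs of free RNA. Cell-free barcodes gave 1007, 2081, 980 and 724 CPM for the same 17 markers. Whether the marker counts of endothelial-like cells came from fibroblasts was not tested. The 5 fibrillar collagens summed to 522, 5328, 3150 and 164 CPM in endothelial-like cells. In fibroblast-like cells they summed to 11312, 62488, 56232 and 64100 CPM.

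The 45 matrix genes together took a large share of the fibroblast-like transcripts and a small one elsewhere. In fibroblast-like cells they made up 6.15%, 11.4%, 10.3% and 13.2% of all UMIs, with exact binomial (Clopper-Pearson) 95% intervals of 6.1276% to 6.164%, 11.352% to 11.397%, 10.303% to 10.337% and 13.164% to 13.211%, which cover counting error only. Library 1 was lowest. The share was 3.01% and 2.93% in the mesothelial-like cells of libraries 3 and 4, and 0.979%, 1.90%, 1.33% and 1.03% in endothelial-like cells. Ductal-like cells of libraries 1 to 3 gave 0.277%, 0.488% and 0.386%. Acinar-like cells, the enzyme-secreting cells, gave 0.0368% to 0.201%, and endocrine-like cells 0.0438% to 0.353%. Immune-like cells gave 0.347%, 1.27%, 0.272% and 0.494%. In library 4 the 270 cells of clusters left without a name gave 2.83%.

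These shares were set beside the free RNA. The cell-free barcodes held 0.775%, 3.20%, 1.43% and 0.707% matrix UMIs, so the acinar-like, ductal-like and endocrine-like shares were below the free RNA in every library where they were measured, and the endothelial-like shares were below it in libraries 2 and 3. In fibroblast-like cells 44 of the 45 genes were above the cell-free level in every library, and the exception was TNC (tenascin-C). In acinar-like cells none was above it in every library and 44 were below it in every library. The corresponding numbers above in every library were 13 in endothelial-like cells, 22 in mesothelial-like cells and 5 in ductal-like cells.

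**Figure D1:**
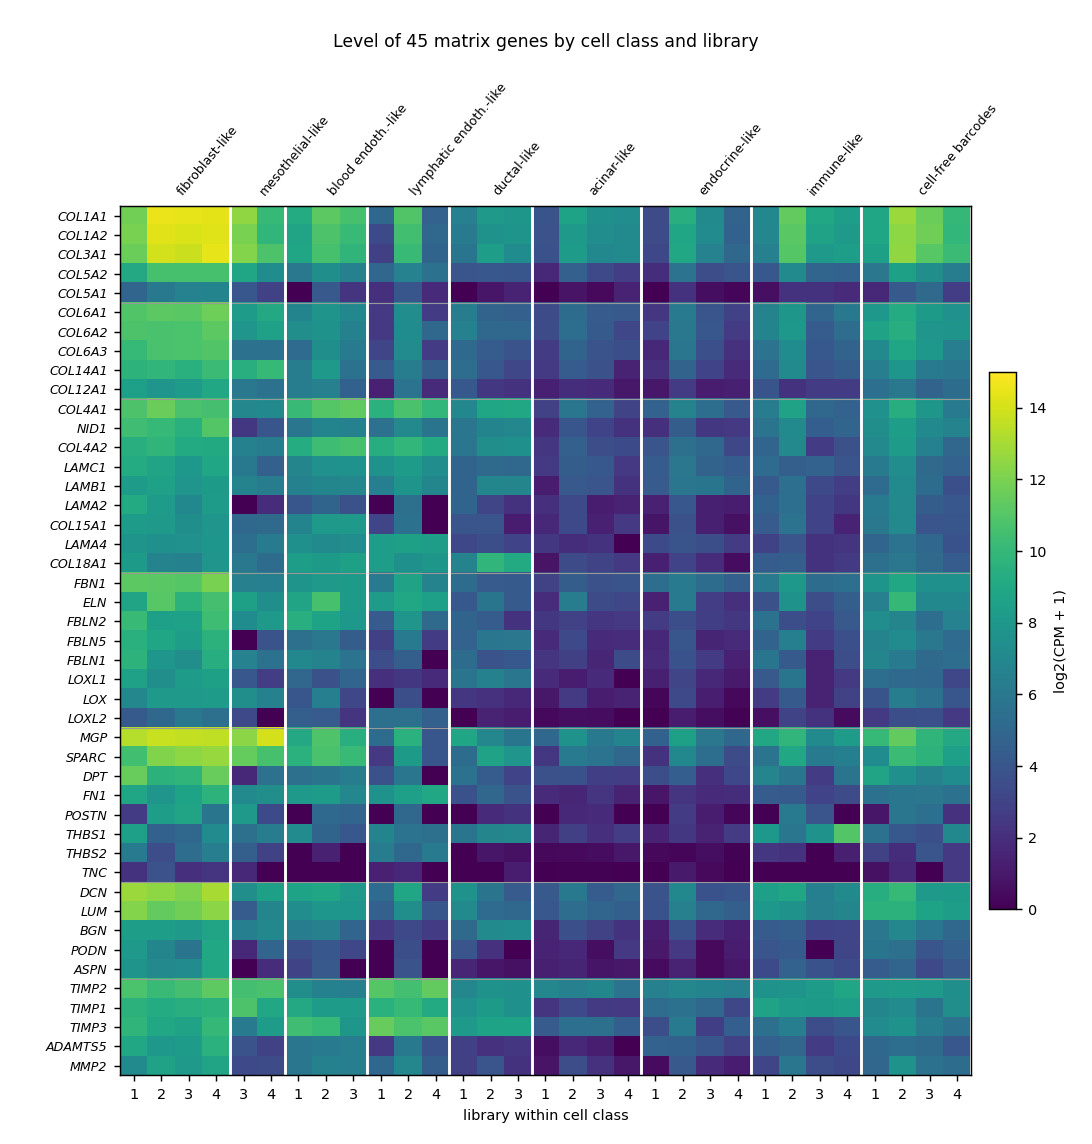
Heat map of the level of each matrix gene, as log2(CPM + 1), with genes in rows grouped by role and the cell classes of each library in columns, cell-free barcodes included. Endothelial-like cells are drawn as blood vessel and lymphatic cells, and brighter colours are higher levels. The fibroblast-like columns are the brightest for most genes, and the basement membrane genes COL4A1, COL4A2, COL18A1 and LAMA4 and the inhibitor TIMP3 are also bright in endothelial-like columns.

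Fibroblast-like cells had the highest level of any class in all 4 libraries for 32 of the 45 genes, and in 3 libraries for a further 7. LAMA4, a laminin chain of vessel walls, was highest in endothelial-like cells in all 4 libraries. COL18A1, the basement membrane collagen that gives rise to endostatin, was highest in endothelial-like cells in libraries 1 and 4 and in ductal-like cells in libraries 2 and 3. TIMP3, an inhibitor that stays bound to the matrix, was highest in endothelial-like cells in libraries 1, 2 and 4 and in ductal-like cells in library 3. The remaining genes were COL4A2 and THBS1, for which fibroblast-like cells were highest in 1 library, and TIMP1, for which they were highest in 2. For THBS1 (thrombospondin 1) the highest class in libraries 3 and 4 was immune-like, at 198 and 2040 CPM.

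The fibrillar collagens, which form the load-bearing fibres, were followed first. COL1A1, a chain of collagen I, stood at 3535, 24574, 22265 and 20972 CPM in fibroblast-like cells. Its partner chain COL1A2 stood at 4078, 20155, 18102 and 19628 CPM. COL3A1, the chain of collagen III in fine fibres, stood at 3130.3, 16130, 14150 and 21831 CPM. All 3 were several times lower in library 1 than in the other libraries, which lay close together. The collagen V genes, whose product starts and limits fibre growth, showed the same order at the bottom: COL5A2 was at 539, 1564, 1617 and 1564 CPM and COL5A1 at 29.0, 64.9, 99.5 and 106 CPM. Library 1 was thus lowest for all 5 fibrillar collagens. It was also lowest for their summed level inside the separate fibroblast sets described further on, at 15054 CPM against 82615, 61756 and 79713 CPM in the HHIP/EDNRA set, and at 10113 CPM against 59431, 56818 and 58995 CPM in the remaining cells. The median UMI count of a fibroblast-like cell was also lowest in library 1, at 4869 against 6809, 6657.5 and 8067, and the summed level of acinar markers in fibroblast-like cells was highest there, at 5091 CPM against 1826, 1759 and 442 CPM; their part in the difference was not tested.

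The collagens that bind fibres or form beaded filaments varied much less between libraries. COL6A1, COL6A2 and COL6A3, the chains of collagen VI microfibrils, ranged from 1986 to 3318 CPM, from 1652 to 2361 CPM and from 1068 to 1932 CPM. COL12A1 and COL14A1, which decorate the surface of fibrils, ranged from 223 to 479 CPM and from 743 to 1177 CPM. For all 5 of these genes library 4 was highest.

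Basement membrane genes were well represented in fibroblast-like cells. COL4A1, a chain of the collagen IV network, was at 1791, 3108, 1675 and 1498 CPM, and COL4A2, its partner, at 673, 892, 581 and 558 CPM, so both were highest in library 2. NID1 (nidogen 1), which links laminin to collagen IV, was at 1358, 1071, 746 and 2049 CPM. The laminin chains LAMA2, LAMA4, LAMB1 and LAMC1 ranged from 125 to 574, from 183 to 234, from 223 to 380.1 and from 254 to 587 CPM. COL15A1 and COL18A1, collagens of basement membrane zones, ranged from 176 to 305 and from 94.8 to 293 CPM. LAMA4 had the smallest spread of all 45 genes, with the highest library 1.28-fold above the lowest.

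Elastic fibres consist of an elastin core in a sheath of fibrillin microfibrils. ELN, which encodes elastin, was at 426, 2200, 798 and 1499 CPM, and FBN1 (fibrillin 1) at 2426, 2292, 2091 and 4124 CPM. The fibulins, which help assemble the fibre, were lowest in libraries 2 and 3: FBLN1 was at 835, 238, 170.4 and 641 CPM. FBLN2 was at 1089, 351, 385 and 1286 CPM and FBLN5 at 739, 468, 326 and 786 CPM, with the same pair of libraries low. The cross-linking enzymes LOX, LOXL1 and LOXL2 ranged from 119.6 to 301, from 168 to 375 and from 17.7 to 62.6 CPM. LOX and LOXL2 were lowest in library 1, as the fibrillar collagens were, and LOXL1 was lowest in library 2.

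The small leucine-rich proteoglycans coat collagen fibrils and set their spacing. DCN (decorin) was at 6849.6, 5609, 4301 and 8541 CPM and LUM (lumican) at 4678, 2675, 3484 and 5413 CPM. BGN (biglycan), ASPN (asporin) and PODN (podocan) ranged from 264 to 432, from 135 to 488 and from 54.5 to 507 CPM. Library 4 was highest for all 5 proteoglycans. Their summed level was 12353, 8858, 8255 and 15380 CPM, so library 1 was second here, unlike for the fibrillar collagens. PODN spread 9.31-fold between libraries, the third widest of the 45 genes.

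Among the adhesive and matricellular genes, whose products signal to cells more than they bear load, MGP (matrix Gla protein, an inhibitor of calcification) was at 10380, 13909, 12846 and 12095 CPM and spread only 1.34-fold. SPARC, which binds collagen, was at 1387, 4625, 5535 and 6689 CPM, lowest in library 1. POSTN (periostin) spread the most of all 45 genes, 83.0-fold, at 5.21, 331, 433 and 54.9 CPM. Libraries 2 and 3 were high and library 1 nearly without it. THBS1 ran the other way, at 352, 24.5, 32.5 and 148 CPM, a spread of 14.3-fold. DPT (dermatopontin, which binds decorin) was also lower in libraries 2 and 3, at 2908, 811, 893 and 2877 CPM. FN1 (fibronectin) ranged from 228 to 816 CPM, THBS2 from 10.7 to 83.9 CPM and TNC from 3.16 to 13.3 CPM. TNC had as few as 24 UMIs in a library and was the rarest count among the 45 genes.

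TIMP1, the first of the turnover genes, was at 788, 597, 705 and 797 CPM and spread 1.34-fold, close to MGP. TIMP2 ranged from 1087 to 2461 CPM and TIMP3 from 394 to 1004 CPM. MMP2 (gelatinase A) ranged from 145 to 436 CPM and was lowest in library 1, and ADAMTS5, a proteoglycan-cutting protease, ranged from 254 to 771 CPM. Library 4 was highest for all 5 turnover genes.

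**Figure D2:**
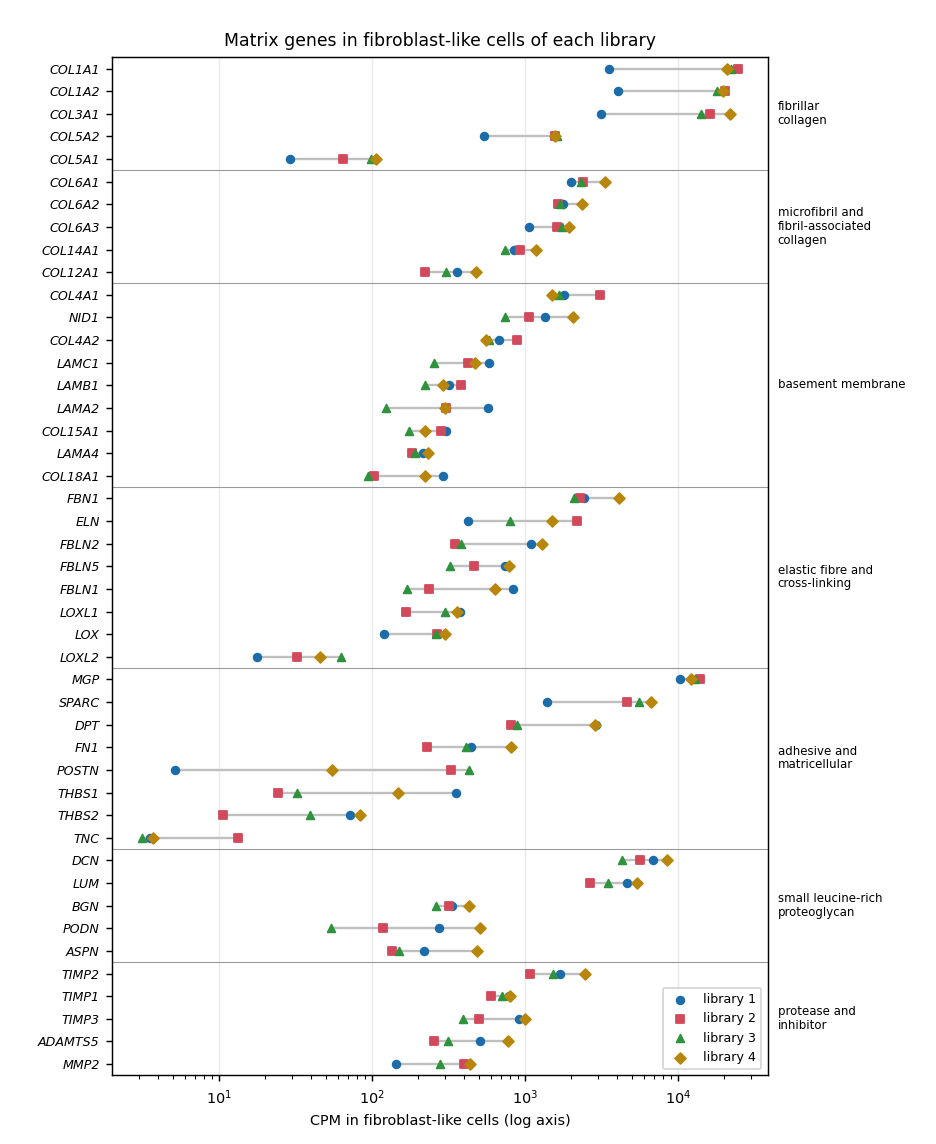
Level of each matrix gene in fibroblast-like cells, as CPM on a log axis, with 1 point per library and genes grouped by role. POSTN spans 5.21 to 433 CPM, the 5 fibrillar collagens have their lowest point in library 1, and LAMA4, TIMP1 and MGP have points that nearly coincide.

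The spread between libraries was set beside that of all genes. The median log2 difference between highest and lowest library was 1.46 for the 45 genes, of which 32, or 71.1%, passed 2-fold. Over the 10049 genes with at least 20 counts in each library the median was 0.70 and 25.4% passed 2-fold. Library 4 was highest for 26 of the 45 genes and lowest for 2, whereas libraries 1, 2 and 3 were lowest for 14, 14 and 15. Depth, cell state, animal and age cannot be told apart in these differences, since each library is a single sample of unknown group.

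Fibroblast-like cells were next set against each other class inside the same library. A gene was called higher when its log2(CPM + 1) exceeded that of the other class by 1 or more, a 2-fold difference, in every library where each class held 20 cells or more. The class with the higher level had to hold 20 counts or more of the gene in each such library, and lower was defined in the mirror way. The 3 comparisons share the same fibroblast-like cells.

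Against endothelial-like cells, which line blood and lymph vessels, 29 of the 45 matrix genes were called higher in fibroblast-like cells in all 4 libraries, while 6.75% of 10207 genes tested were. Of these calls 26 had the depth in endothelial-like cells to show the difference, as set out further on. None was called lower, against 3.42% of all genes. The median log2 ratio was 3.47 for the matrix genes and -0.22 for all genes. The called genes were all 5 fibrillar collagens, all 5 fibril-associated and microfibril collagens, all 5 proteoglycans, 5 of 8 elastic fibre genes, 5 of 8 adhesive genes (POSTN and TNC, which lacked that depth, among them), 2 of 9 basement membrane genes (LAMA2 and NID1) and 2 of 5 turnover genes (MMP2 and ADAMTS5).

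ASPN had log2 ratios of 6.11, 3.05, 7.25 and 8.93; no ASPN count was seen in the endothelial-like cells of libraries 3 and 4, where 3 counts would bound the difference at 15.0-fold and 70.5-fold at least, so its ratios there depend on the pseudocount. DPT had 6.99, 3.82, 3.78 and 11.49, and its absence from the endothelial-like cells of library 4 bounds it there at 416-fold at least. COL6A3, a collagen VI chain, had 5.94, 3.28, 4.67 and 8.43. Library 2 or 3 was thus lowest and library 4 highest in each case. LUM had log2 ratios of 6.15, 3.66, 4.12 and 8.51, and DCN of 5.52, 3.62, 4.24 and 10.57, the same order of libraries. LAMA2, a laminin chain typical of mesenchyme and muscle, had 6.74, 3.08, 3.50 and 8.24, with at least 43.5-fold in library 4 where endothelial-like cells had no count. COL6A1 had 5.78, 3.62, 4.42 and 9.21 and COL6A2 had 5.03, 3.18, 4.26 and 6.25. In library 4 endothelial-like cells held 0.0119%, 0.0027% and 0.0068% of the COL6A3, DCN and COL6A1 UMIs of the kept cells. These ratios of library 4 thus rest on few endothelial-like counts. MGP had 5.79, 3.31, 4.47 and 5.32 and LOX, the founding lysyl oxidase, 4.49, 2.25, 5.08 and 5.25. All 10 were lowest in library 2 or 3, where the cell-free barcodes held the largest matrix share. Blood vessel cells also made up more of the endothelial-like class in these libraries, 62 of 96 and 29 of 37 cells. In libraries 1 and 4 they were 44 of 130 and 6 of 59. The part of this mix in the ratios was not tested.

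For these genes the endothelial-like level was not above the free RNA. All 5 fibrillar collagens, the 3 collagen VI chains, COL14A1, the proteoglycans and MGP were below the cell-free level in the endothelial-like cells of every library. COL1A1, for example, was at 203, 2164, 1350.3 and 27.7 CPM there. The part of free RNA in the size of these ratios was not tested.

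The 16 genes with no call include the vessel matrix. COL4A1 was at 857, 1922, 2323 and 1082 CPM in endothelial-like cells, with log2 ratios of 1.06, 0.69, -0.47 and 0.47, and COL4A2 at 637, 1169.6, 1475 and 648 CPM, with ratios of 0.08, -0.39, -1.34 and -0.22. The sign thus differed between libraries for both collagen IV chains. LAMA4 was at 288, 235, 192 and 298 CPM, with ratios between -0.42 and -0.01. COL18A1 was at 324, 244, 327 and 269.9 CPM, with ratios of -0.15, -1.23, -1.78 and -0.28. TIMP3 was at 2424, 1347, 381 and 2203 CPM, with ratios of -1.41, -1.43, 0.05 and -1.13. TIMP3 passed 2-fold in 3 libraries but not in library 3, and without library 3 it was called lower in fibroblast-like cells. These 5 genes were above the cell-free level in endothelial-like cells in every library: TIMP3 by 16.2, 6.68, 4.83 and 45.7-fold, LAMA4 by 9.89, 4.49, 5.98 and 23.6-fold and COL4A1 by 4.52, 2.97, 9.68 and 14.3-fold. The other genes with no call were COL15A1, LAMB1, LAMC1, ELN, FBLN2, LOXL2, FN1, THBS1, THBS2, TIMP1 and TIMP2, with log2 ratios between -1.07 (LOXL2) and 5.33 (THBS2). The THBS2 value is of library 3, where endothelial-like cells had no count, a bound of at least 3.88-fold.

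Other genes of matrix biology were taken from 5 lists, chosen, as the 45 genes were, with earlier results of these data known. Higher in fibroblast-like than in endothelial-like cells were 11 of 22 tested genes for collagen processing and 18 of 34 for other matrix proteins. For matrix receptors 6 of 19 were higher and 2 were lower, for the TGF-beta axis 2 of 15 and 1, and for matrix degradation 5 of 23 and none; 1 other matrix gene and no processing gene was lower. ITGB4 and ITGA6, the chains of the integrin that grips laminin, were lower by log2 ratios of -8.14, -7.59, -7.37 and -8.73 and of -7.67, -7.02, -7.68 and -7.47. VCAN, the large proteoglycan versican, was higher by 5.35, 3.60, 6.08 and 6.62. MMP19, a metalloproteinase, was higher by 5.84, 2.97, 6.47 and 5.46 and SPON1 (spondin 1) by 5.95, 3.77, 6.25 and 4.80.

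Against mesothelial-like cells, measured in libraries 3 and 4, 33 of the 45 genes were called higher, with 9.0% of 10844 genes called, and none lower, with 3.15% called. The 45 genes had a median log2 ratio of 2.68, and all genes together -0.07. By role these were all 5 fibrillar collagens, 4 of 5 associated collagens, 8 of 9 basement membrane genes, 6 of 8 elastic fibre genes, all 5 proteoglycans, 2 of 8 adhesive genes and 3 of 5 turnover genes.

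ASPN was higher by log2 ratios of 7.25 and 7.00 in libraries 3 and 4, with no count in the mesothelial-like cells of library 3, a bound of at least 22.7-fold. FBLN5 was higher by 8.35 and 5.80, again with no count in library 3 and at least 48.9-fold. NID1 was higher by 7.10 and 7.00, at 746 and 2049 CPM against 4.45 and 15.0 CPM. LAMA2 had no count in the mesothelial-like cells of library 3 and was higher in fibroblast-like cells by 6.97 and 6.31, at least 18.7-fold in library 3. DPT was higher by 8.11 and 5.85 and LUM by 7.37 and 5.56. ADAMTS5 was higher by 4.46 and 6.67 and MMP2 by 4.83 and 5.27, so both proteases of the list were low in mesothelial-like cells. COL6A3 was higher by 5.12 and 5.25 and FBN1 by 4.50 and 5.56. The lowest log2 ratio among these 10 genes was 4.46, for ADAMTS5 in library 3.

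Of the 12 genes with no call, MGP was at 5441 and 17105 CPM, with log2 ratios of 1.24 and -0.50, so the direction differed between the libraries. COL14A1 was at 663 and 1039 CPM, with ratios of 0.16 and 0.18, and TIMP2 at 1442 and 1648 CPM, with 0.09 and 0.58. TIMP1 was at 1767 and 494 CPM, with -1.32 and 0.69. MGP was 6.10 and 31.7-fold above the cell-free level and COL14A1 8.72 and 18.1-fold. The other genes with no call were COL18A1, FBLN1, LOX, POSTN, SPARC, TNC, THBS1 and THBS2, with ratios from -0.44 (THBS1) to 3.66 (FBLN1). COL1A1 was called higher in fibroblast-like cells but was still at 5798 and 1043 CPM in mesothelial-like cells, and the fibroblast marker sum there was 817 and 1768 CPM against 980 and 724 CPM in cell-free barcodes.

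In the pathway lists 11 of 22 collagen processing genes were higher in fibroblast-like than in mesothelial-like cells, 23 of 38 other matrix genes, 8 of 18 receptors, 6 of 17 TGF-beta axis genes and 11 of 25 degradation genes. The numbers lower were 0, 7, 2, 2 and 0. MFAP5, a microfibril-associated glycoprotein, was higher by log2 ratios of 9.04 and 7.44, VCAN by 8.21 and 5.84, MRC2, an endocytic collagen receptor, by 5.97 and 7.07, and SPON2 by 6.06 and 6.86. ITGA6 was lower by -5.91 and -6.61, so the laminin integrin chain was low in fibroblast-like cells here too.

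Against ductal-like cells, the epithelium that drains the gland, 39 of the 45 genes were called higher in libraries 1 to 3, with 9.49% of 10443 genes called, and none lower, with 7.16% called. Of these calls 35 had the depth in ductal-like cells to show the difference. Their median log2 ratio was 4.79, with -0.34 for all genes. By role these were all 5 fibrillar collagens, all 5 associated collagens, 8 of 9 basement membrane genes, 7 of 8 elastic fibre genes, 4 of 5 proteoglycans, 6 of 8 adhesive genes and 4 of 5 turnover genes.

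In libraries 1 to 3 MGP was higher by log2 ratios of 4.49, 6.81 and 7.81 and DCN by 5.02, 6.70 and 7.75. FBN1 was higher by 5.96, 6.83 and 6.76. The fibrillar collagens were close behind: COL5A2 was higher by 5.10, 6.56 and 6.63, COL1A1 by 5.24, 6.45 and 6.49 and COL1A2 by 5.90, 6.66 and 6.40. COL6A1 was higher by 4.62, 6.48 and 6.59 and COL6A3 by 4.95, 6.28 and 6.96. Library 1 had the lowest ratio for each of these 8 genes. ASPN was higher by 6.15, 6.19 and 6.58 and POSTN by 2.64, 6.52 and 6.57. POSTN had no count in the ductal-like cells of library 1 and its own level there, 5.21 CPM, is under what 3 counts in those cells would give, so no bound can be set in that library. In ductal-like cells 35 of the 45 genes were below the cell-free level in every library, and the part of free RNA in these ratios was not tested.

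COL18A1 was the exception among the collagens, at 103, 929.7 and 572 CPM in ductal-like cells against 293, 103 and 94.8 CPM in fibroblast-like cells. Its log2 ratios were 1.50, -3.16 and -2.58, so fibroblast-like cells were higher in library 1 and ductal-like cells in libraries 2 and 3, where the ductal level was 15.3 and 16.3-fold above the free RNA. THBS1 split the same way, with ratios of 2.61, -2.18 and -1.90 and ductal levels of 56.8, 115 and 124 CPM. Without library 1, whose 49 ductal-like cells are the fewest, both were called lower in fibroblast-like cells. TIMP3 had ratios of 1.76, 0.23 and -0.07 and BGN of 3.19, 1.20 and 0.77. LOXL1 and TNC had no call either, with lowest ratios of 0.79 and 0.93. LOXL1, at 52.6, 96.4 and 57.4 CPM, was above the free RNA in ductal-like cells in every library, as were COL18A1, THBS1, TIMP1 and TIMP3.

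In the pathway lists 11 of 22 collagen processing genes were higher in fibroblast-like than in ductal-like cells, 26 of 39 other matrix genes, 9 of 19 receptors, 7 of 16 TGF-beta axis genes and 16 of 24 degradation genes. The numbers lower were 0, 6, 5, 1 and 2. MMP7 (matrilysin, a protease of glandular epithelium) was lower by log2 ratios of -10.79, -8.39 and -10.19, the widest of the listed genes. MFAP5 was higher by 6.73, 7.70 and 7.88, TNXB (tenascin-X) by 5.13, 6.34 and 6.82, NID2 by 5.78, 7.30 and 5.83 and EMILIN2, an elastic fibre glycoprotein, by 4.49, 6.12 and 5.74.

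Depth in the smaller class limits some of these calls. If a gene was tested only where its level in the higher class would give 20 counts at the total of the shallower class, a rule chosen after the data were seen, 26, 33 and 35 of the 45 genes were called higher than in endothelial-like, mesothelial-like and ductal-like cells. The calls lost were POSTN, PODN and TNC against endothelial-like cells and COL5A1, LOXL2, POSTN and THBS2 against ductal-like cells. A bound at 3 counts does not reach 2-fold for POSTN in library 1, at 1.59-fold against endothelial-like cells, and lies below 1 for TNC in libraries 3 and 4.

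**Figure D3:**
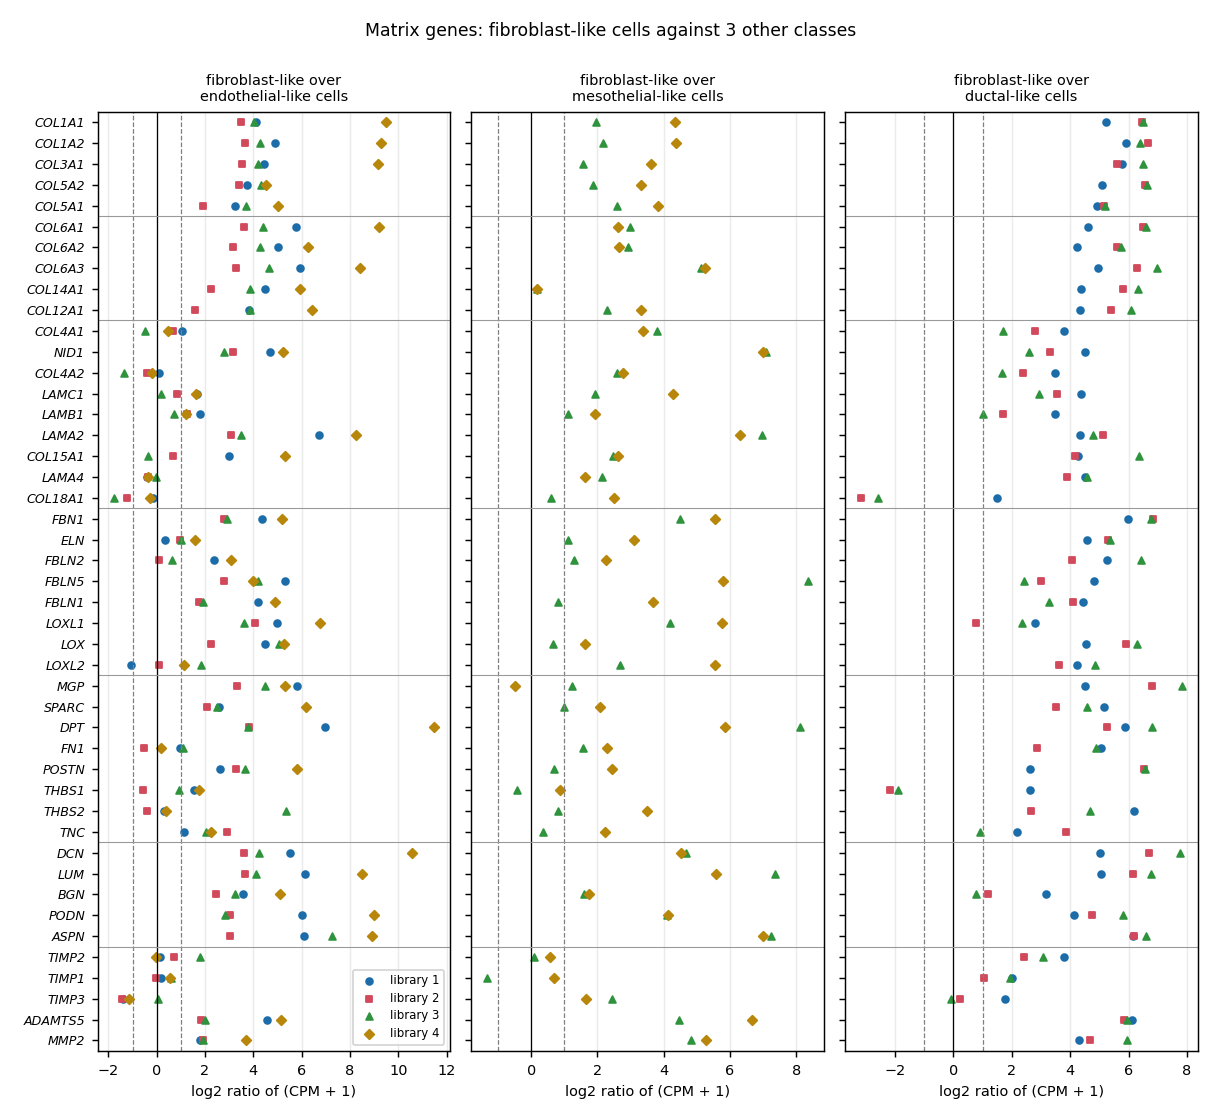
Log2 ratio of fibroblast-like over endothelial-like, mesothelial-like and ductal-like cells for each matrix gene, with 1 point per library and dashed lines at -1 and 1. Most points lie right of 1, in the endothelial panel COL4A2, COL18A1, LAMA4 and TIMP3 have no point right of 1 and COL4A1 has only that of library 1, at 1.06, and the ductal panel has COL18A1 and THBS1 left of -1 in libraries 2 and 3.

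Within the fibroblast-like cells, a subcluster was marked adventitial when at least 3 markers of the fibroblasts that sheathe vessels and ducts were raised, PI16 or PCOLCE2 among them. This gave 219 cells in library 2 and 297 in library 3, both with PCOLCE2, CD55 and SEMA3C raised and PI16 not. Subclusters with raised HHIP and EDNRA markers held 321, 139, 57 and 229 cells, and 939, 689, 1352 and 745 cells remained. The subclusters were formed without the matrix genes.

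The adventitial cells differed from the remaining cells in a few matrix genes. Of 44 genes tested 3 were called higher, with 0.687% of 9749 genes called, and none lower, with 1.65% called. The median log2 ratio was -0.05 against 0.02 for all genes. LOXL1, which cross-links elastin, was at 359.8 and 611 CPM in the adventitial cells of libraries 2 and 3 against 106 and 223 CPM in the remaining cells, log2 ratios of 1.75 and 1.45. FBN1 was at 4667 and 4024 CPM against 1631 and 1612 CPM, ratios of 1.52 and 1.32. ADAMTS5 was at 481 and 576 CPM against 209 and 254 CPM, ratios of 1.20 and 1.18. With subclusters formed at resolution 1.0 in place of 0.6 none of the 3 was called, so the calls depend on how the cells are divided. The fibrillar collagens summed to 58744 and 53217 CPM in the adventitial cells against 59431 and 56818 CPM in the remaining ones.

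A looser marker rule, chosen after the data were seen, took subclusters with at least 2 raised adventitial markers and gave 170, 219, 297 and 208 cells. In libraries 1 and 4 neither PI16 nor PCOLCE2 was raised in them. The raised markers there were CD55, SEMA3C and CD34 in library 1 and CD55 and SEMA3C in library 4. It called LOXL1 and ADAMTS5 higher in all 4 libraries, with 0.400% of 8994 genes called higher and 0.678% lower. LOXL1 had log2 ratios of 1.69, 1.75, 1.45 and 1.01 and ADAMTS5 of 1.12, 1.20, 1.18 and 1.14. FBN1 missed the call in library 4 alone, with 1.80, 1.52, 1.32 and 0.97. On the low side COL15A1 was at 74.5, 207, 50.1 and 55.1 CPM against 403, 323, 209 and 305 CPM. It missed the call through library 2 alone, with log2 ratios of -2.42, -0.64, -2.04 and -2.45. FBLN1 had ratios of -2.18, -0.67, -0.85 and -1.45 and MGP of -1.16, -0.70, -1.38 and -1.47, both negative in every library and not past 2-fold in all.

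Among the pathway genes 2 other matrix genes were called higher in adventitial cells and 4 lower, of 36 tested, with 0 of 21 processing genes and 0 of 16 receptors called. Of 15 TGF-beta axis genes 2 were lower and of 21 degradation genes 1 was lower. ECM1 (extracellular matrix protein 1) was higher by log2 ratios of 2.10 and 2.62. SMOC1, a basement membrane glycoprotein, was lower by -2.34 and -1.78, FREM1, another, by -2.02 and -1.81, and BAMBI, a decoy receptor of TGF-beta, by -1.89 and -1.55. MMP7 was lower by -2.47 and -1.38. Of the listed pathway genes it stood furthest above fibroblast-like cells in ductal-like cells. In library 2 a remaining subcluster of 32 cells was led by ductal genes, MMP7 among them, and library 3 had none led by acinar or ductal genes. Libraries 1 and 4, which are not in this comparison, had remaining subclusters led by acinar genes. The part of such cells in the MMP7 values was not tested.

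The HHIP/EDNRA cells had no matrix gene called among 44 tested, while 0.269% of 9302 genes were called higher and 0.129% lower. Medians of the log2 ratio were -0.12 for these genes and -0.04 for all. ADAMTS5, NID1 and 3 of the 8 elastic fibre genes passed 2-fold in 3 of the 4 libraries, and their values are given as chosen after they were seen. ELN was at 678, 8053, 1677 and 3042 CPM in these cells against 345, 1229, 769 and 995 CPM in the remaining ones, log2 ratios of 0.97, 2.71, 1.12 and 1.61. It failed the criterion through library 1 alone and was called without that library. FBLN1 was at 1550, 470.0, 352 and 1432 CPM against 606, 221, 182 and 383 CPM, ratios of 1.35, 1.08, 0.95 and 1.90. LOX was at 198, 555, 417 and 488 CPM against 94.4, 221, 250.4 and 240.4 CPM, ratios of 1.06, 1.32, 0.73 and 1.02. FBLN1 and LOX missed through library 3, where the set held its fewest cells, 57, and were called without it. On the low side NID1 was at 637, 656, 318 and 1128 CPM against 1589.6, 1082, 689 and 2351 CPM, ratios of -1.32, -0.72, -1.11 and -1.06. ADAMTS5 was at 251, 105, 110.2 and 419 CPM against 592, 209, 254 and 886 CPM, ratios of -1.23, -0.99, -1.20 and -1.08. Both missed through library 2 and were called lower without it. The remaining cells of libraries 1 and 4 still hold the subclusters that the looser marker rule calls adventitial. With those left out, ADAMTS5 had ratios of -0.90, -0.99, -1.20 and -0.62 and NID1 of -1.22, -0.72, -1.11 and -0.98, so neither was called, and ELN was called higher, with 1.10, 2.71, 1.12 and 1.66. Centred on the median of all genes, ELN was called higher and ADAMTS5 lower.

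Both set comparisons share the remaining cells. In libraries 2 and 3, where all 3 sets were present, ADAMTS5 was at 481 and 576 CPM in the adventitial, 209 and 254 CPM in the remaining and 105 and 110.2 CPM in the HHIP/EDNRA cells. The summed basement membrane genes were at 3677, 4343, 2790 and 3637 CPM in the HHIP/EDNRA set against 6895, 7351, 4187 and 6570 CPM in the remaining cells, lower in every library. Markers of pericytes and smooth muscle moved with this set: 15 such genes summed to 440, 1740, 1872 and 150 CPM in it against 178, 198, 138 and 69.7 CPM in the remaining cells and 54.3, 157, 32.2 and 23.0 CPM in cell-free barcodes. Of the 15 markers 15, 15, 15 and 11 were detected in the set, and in library 2 its subcluster was led by ACTA2 and TAGLN, genes of contractile cells. Their part in the ELN and LOX values was not tested. TNC, at 4.91, 84.0, 7.88 and 10.5 CPM in the HHIP/EDNRA set, was highest in the same library 2.

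Only 1 pathway gene was called in the HHIP/EDNRA set. FMOD (fibromodulin), a proteoglycan that binds collagen fibrils, was higher by log2 ratios of 2.71, 3.02, 1.80 and 2.51, 1 of 33 other matrix genes tested. None of 21 processing genes, 16 receptors, 14 TGF-beta axis genes and 20 degradation genes was called in either direction.

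**Figure D4:**
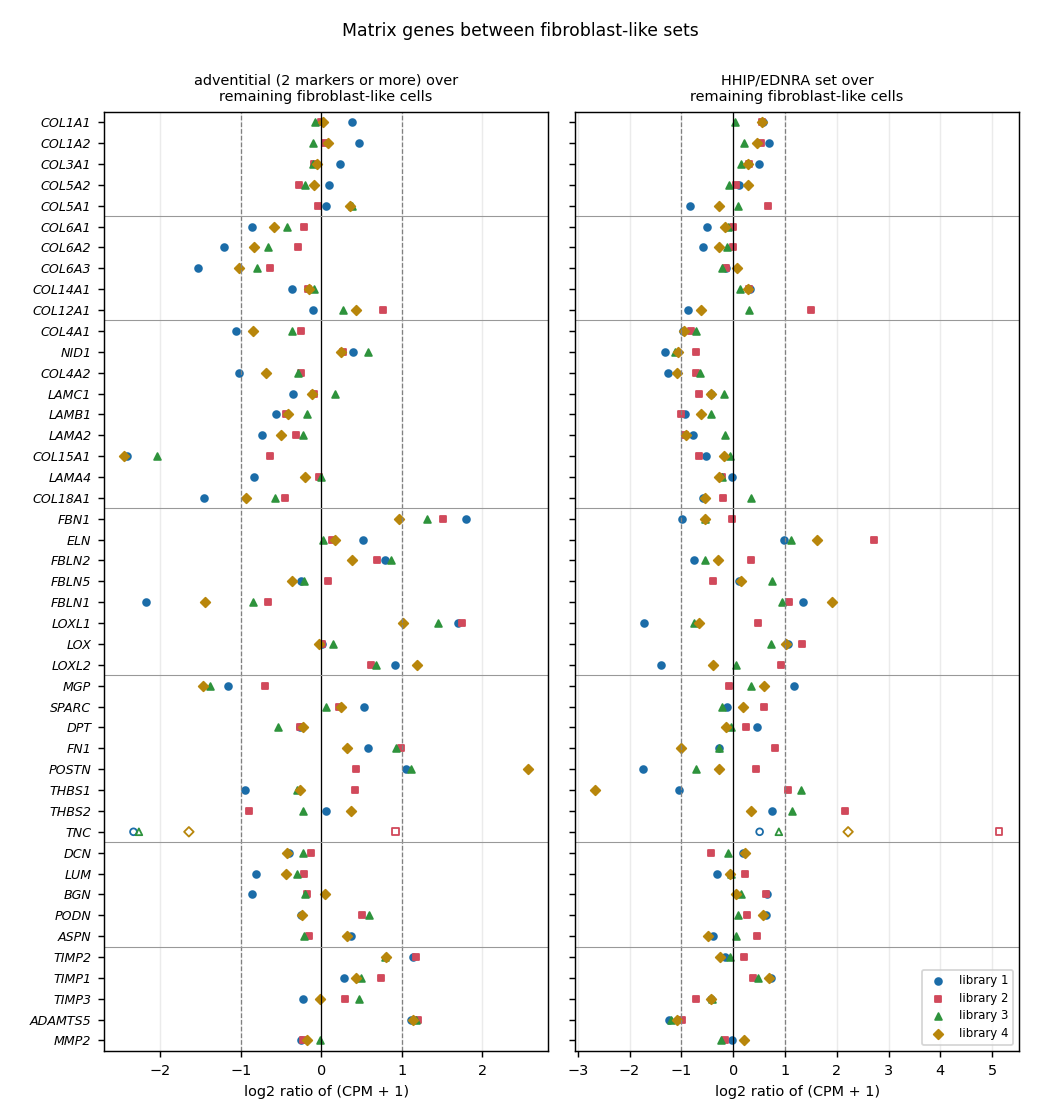
Log2 ratio of the adventitial set (2 raised markers or more, 4 libraries) and of the HHIP/EDNRA set over the remaining fibroblast-like cells for each matrix gene, with 1 point per library and dashed lines at -1 and 1. In libraries 1 and 4 the adventitial set had neither PI16 nor PCOLCE2 raised. LOXL1 and ADAMTS5 lie right of 1 in the adventitial panel in all 4 libraries, and ELN, at 0.97 to 2.71, is right of 1 in the HHIP/EDNRA panel in all but library 1.

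Over all fibroblast subclusters of at least 50 cells, 5, 5, 6 and 5 per library, the genes differed in how evenly they were spread. Small subclusters weigh on this measure. In library 1 a subcluster of 51 cells was led by acinar genes. In library 3 a subcluster of 50 cells held the lowest level of many of the genes, FBN1 and ELN among them. Their part in the order of the genes was not tested. COL5A2 was the most even, with a median over libraries of 0.34 for the log2 distance between its highest and lowest subcluster. LAMA4 followed at 0.51, and DCN and COL14A1 were at 0.64. FBN1, at 2.67, COL15A1, at 2.65, ELN, at 2.56, and FBLN1, at 2.52, were among the least even, with TNC, a rare transcript, at 3.44. FBN1, FBLN2, LOXL1, TIMP2 and ADAMTS5 had their highest subcluster in the adventitial set under the looser rule in all 4 libraries. ELN, FBLN1, LOX and THBS2 had theirs in the HHIP/EDNRA set in all 4. Evenness followed role in part. The fibrillar collagens were at 0.34 (COL5A2) to 1.15 (COL5A1) and the proteoglycans at 0.64 (DCN) to 1.13 (PODN). The elastic fibre genes were at 1.47 (FBLN2) to 2.67 (FBN1), apart from FBLN5 at 0.99. The collagen COL12A1 was at 1.82.

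Endothelial-like cells divided into lymphatic cells (86, 34, 8 and 53) and blood vessel cells (44, 62, 29 and 6), so libraries 1 and 2 alone hold at least 20 of each. The 7 lymphatic markers, which took part in this naming, summed to 27450, 18970 and 24720 CPM in the lymphatic cells of libraries 1, 2 and 4. In the blood vessel cells of libraries 1 to 3 they summed to 52.0, 105 and 68.3 CPM. Of 31 matrix genes tested 1 was called higher in lymphatic cells, with 7.37% of 4426 genes called, and 6 were called lower, with 5.56% called. The median log2 ratio was -1.06 against 0.06 for all genes. The lower calls depended on the setting, with TIMP2 called higher in each: 1 (SPARC) remained at 1000 UMIs, 2 (MGP and SPARC) at a minimum of 50 counts, 3 (COL15A1, FBLN1 and SPARC) with the automatic doublet threshold and 3 (COL15A1, MGP and SPARC) with libraries clustered separately. The other matrix genes had too few counts for the rule. THBS2 was among them and is named after its values were seen: it was at 82.4, 33.0 and 71.4 CPM in the lymphatic cells of libraries 1, 2 and 4 and at 0, 1.55 and 0 CPM in the blood vessel cells of libraries 1 to 3, with 15 counts in the lymphatic cells of library 2. Against 3 counts it was at least 7.39-fold higher in library 1.

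TIMP2, the inhibitor that also helps activate MMP2, was the gene higher in lymphatic cells. It was at 2154, 1444 and 2749 CPM in the lymphatic cells of libraries 1, 2 and 4 and at 171, 94.6 and 84.4 CPM in the blood vessel cells of libraries 1, 2 and 3, log2 ratios of 3.65 and 3.92 in libraries 1 and 2. The values of libraries 3 and 4 have no counterpart in the same library. The endothelial-like class of library 4 was 53 of 59 lymphatic, and its TIMP2 level, 2509.8 CPM, was the highest of the 4 libraries, with library 3, 8 of 37 lymphatic, the lowest at 442 CPM.

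SPARC was at 4.66, 288 and 15.3 CPM in lymphatic cells and at 773, 1669 and 1157 CPM in blood vessel cells, log2 ratios of -7.09 and -2.53. BGN was at 4.66, 8.79 and 5.10 CPM against 81.7, 91.5 and 28.1 CPM, ratios of -3.87 and -3.24. COL15A1, a collagen of capillary basement membrane, was at 7.77, 48.4 and 0 CPM against 108, 268 and 265 CPM, ratios of -3.63 and -2.45. As for TIMP2, the lymphatic values are of libraries 1, 2 and 4 and the blood vessel values of libraries 1, 2 and 3. FBLN1 was at 10.9, 22.0 and 0 CPM against 126, 104 and 52.2 CPM, ratios of -3.42 and -2.19. MGP was at 38.9, 756 and 15.3 CPM against 539, 1855 and 679 CPM, ratios of -3.76 and -1.29, and COL14A1 at 18.7, 79.1 and 20.4 CPM against 81.7, 271 and 48.2 CPM, ratios of -2.07 and -1.77. For MGP and COL14A1 the lymphatic cells of library 2 overlap the blood vessel range.

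Marker sums of other cell types moved with this comparison. Fibroblast markers summed to 726 and 1189 CPM in the lymphatic cells of libraries 1 and 2 and to 1419 and 1993 CPM in the blood vessel cells, with 10 and 16 of the 17 detected in the lymphatic cells and PRRX1, TWIST2, SFRP2, OSR1, MEOX1, SCARA5 and SRPX at 0 in library 1. Markers of pericytes and smooth muscle summed to 3.11 and 35.2 CPM in the lymphatic cells and to 940 and 146 CPM in the blood vessel cells. COL1A1 moved the same way, at 32.7 and 1915 CPM against 609 and 2340 CPM. Their part in the 6 lower calls was not tested.

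Among pathway genes 1 of 12 processing genes, 6 of 18 other matrix genes, 1 of 10 receptors, 1 of 10 TGF-beta axis genes and 3 of 11 degradation genes were higher in lymphatic cells, and 0, 4, 2, 1 and 1 were lower. FBLN7 was higher by log2 ratios of 7.35 and 5.60 and ADAMTS12, a matrix protease, by 5.53 and 4.07. SMAD7, the inhibitory SMAD, was lower by -7.11 and -3.89, SDC2 (syndecan 2) by -4.51 and -4.19 and SPARCL1, a relative of SPARC, by -3.97 and -4.65.

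Pericytes and smooth muscle cells could be named only when every barcode with at least 1000 UMIs and 500 genes was kept, and only library 2, with 60 such cells, passed the minimum of 20; the others held 11, 10 and 2. With a single library there is no replicate. Against the 5745 fibroblast-like cells of that setting, 41 matrix genes had enough counts, of which 2 were past 2-fold higher in the mural cells, with 26.7% of 1811 genes past 2-fold, and 28 past 2-fold lower, with 15.8% of genes. The median log2 ratio was -2.06 against 0.37 for all genes.

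COL18A1 was at 358 CPM (exact Poisson 95% interval 279 to 451, counting error only) in the mural cells and at 138 CPM in fibroblast-like cells, a log2 ratio of 1.37. THBS1 was at 202 CPM against 41.2 CPM, a ratio of 2.26. COL1A1 was at 2896 CPM against 25320 CPM, a ratio of -3.13, so the main interstitial collagen was far lower in the mural cells. LAMB1 had the lowest ratio, -5.47, but from 2 counts, at 10.1 CPM with an interval of 1.22 to 36.4 CPM against 491 CPM. DPT had a ratio of -4.63 from 7 counts and NID1 of -4.08 from 12. COL4A1, at 2519 CPM against 3516 CPM and a ratio of -0.48, did not pass 2-fold.

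**Figure D5:**
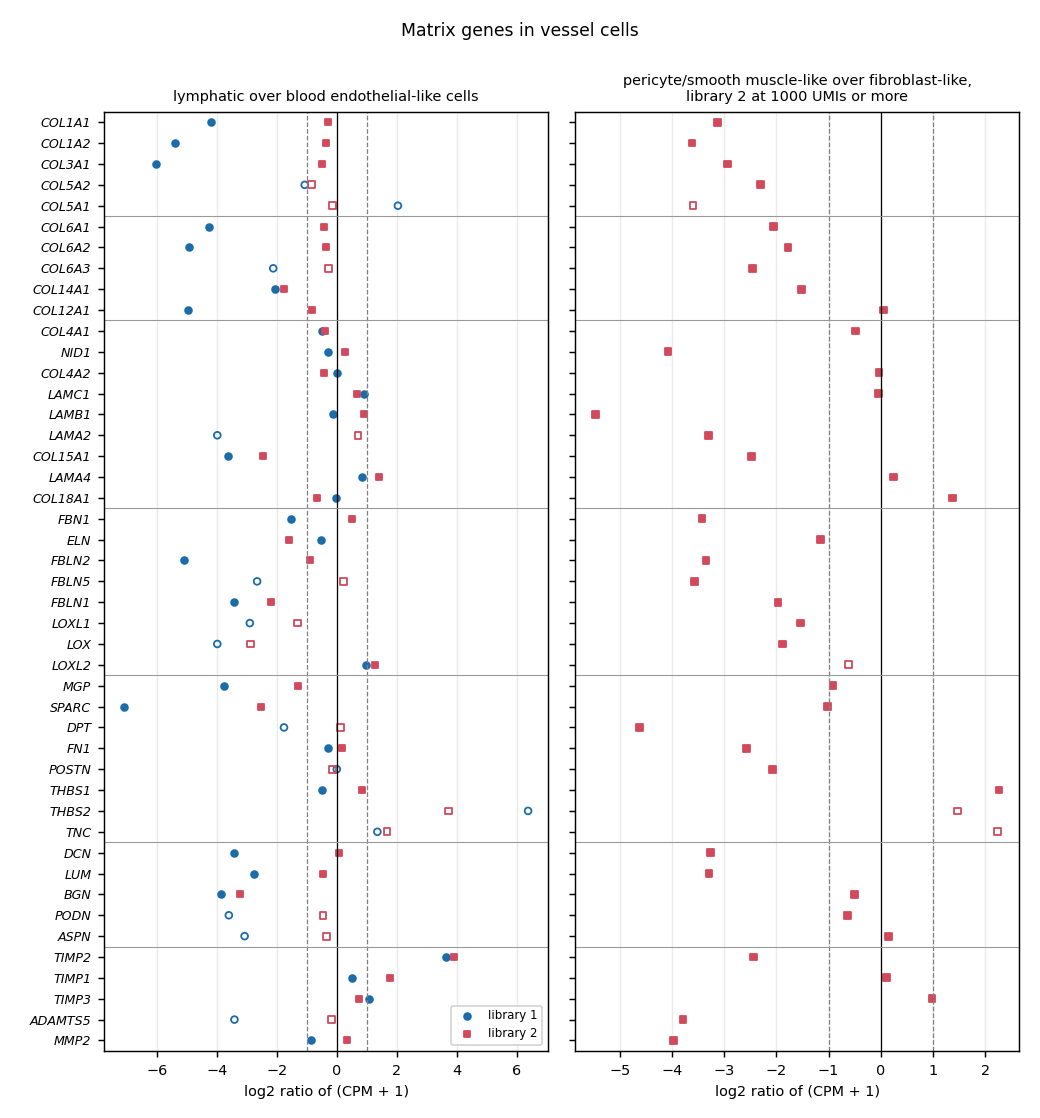
Log2 ratio of lymphatic over blood vessel endothelial-like cells (libraries 1 and 2) and of pericyte and smooth muscle-like over fibroblast-like cells (library 2, at least 1000 UMIs a cell) for each matrix gene, with dashed lines at -1 and 1 and open points where counts were too few. TIMP2, at 3.65 and 3.92, is the gene called on the lymphatic side, THBS2 lies there too as open points, SPARC reaches -7.09, and COL18A1 and THBS1 are the 2 measured genes right of 1 in the mural panel.

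Several matrix genes are chromosomal neighbours in the RefSeq gene table of the goat assembly ARS1.2, to which all 45 gene identifiers matched. COL3A1 and COL5A2, COL4A1 and COL4A2, COL6A1 and COL6A2, and DCN and LUM each have 0 protein-coding genes between them. COL18A1 and COL6A1 have 2 protein-coding genes between them. The COL18A1 level in fibroblast-like cells was 293, 103, 94.8 and 222 CPM, with libraries 2 and 3 low, whereas COL6A1 was lowest in library 1. Reads of neighbouring or antisense genes could not be told apart here.

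Over 25 pairs of class and library the genes outside the list whose log2(CPM + 1) ran most like the summed matrix genes were FSTL1, at a Pearson r of 0.98, LOC108635555, at 0.96, and ITIH5, at 0.96. FSTL1 (follistatin-like 1) is a secreted glycoprotein of mesenchymal cells related to SPARC, and ITIH5 belongs to a family that binds hyaluronan. These correlations describe classes that share libraries, depth and free RNA, and they carry no test.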

How the data were processed

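Single-cell UMI counts of 4 goat pancreas samples were used as deposited, in a single unfiltered matrix of 27137 genes and 27179520 barcodes; the counts are whole numbers, not normalized, per the file headers and the values. Cell Ranger 3.1.0 and Seurat 3.1.1 stand in the submitters' processing notes, and Cell Ranger 5.0.1 in the matrix header. The build, annotation and strand setting were not given in the sources used here. No label ties the library numbers to samples, so libraries stayed unassigned, and the planned edgeR comparison of ages was not run.

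Cells were barcodes above 1/10 of the 99th percentile of the top 8000 barcodes of a library (3416.7, 5525, 4189.2 and 3402.5 UMIs) with at least 500 genes. The 5% with the highest Scrublet scores were removed per library as doublets, since the automatic threshold marked 77, 2, 111 and 4 cells. With the matrix and pathway genes left out, 2000 variable genes, 30 principal components and 15 neighbours entered Leiden clustering (scanpy 1.11.5, igraph 0.11.9) at resolution 1, and at 0.6 for fibroblast-like cells of each library. A cluster was named when at least 3 markers were at least 2-fold raised and detected in 10% of its cells; 163 of 173 markers and 165 of 169 pathway genes matched a symbol.

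Counts were summed per class and library, scaled to CPM and compared as log2(CPM + 1), which understates the change of low genes. A fold against a class without counts is a lower bound against 3 counts in that library. The calling script was tested on simulated data. The 45 genes and all lists were chosen with earlier results of these data known. Named with values in every library were, per comparison, up to 10 called genes of the 45 and up to 5 called pathway genes by the size of the median log2 ratio, the 3 genes of lowest and of highest spread over libraries, and the 3 other genes most like the summed 45. Alternatives covered pseudocount, scaling (edgeR 4.0.16 TMM, for factors only), count minimum, cell calling, doublets, clustering and each library left out. No sequence is printed.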

Additional observations from a re-analysis of the deposited data

How the results depend on the processing

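Libraries are single samples of unknown age, so no value here has a replicate error, and calls rest on 2 to 4 libraries. Classes of fewer than 100 cells carry few counts per gene. The numbers of matrix genes higher in fibroblast-like cells than in endothelial-like, mesothelial-like or ductal-like cells stayed within 1.5 times the main value under every alternative run; leaving out each library in turn gave 29 to 30 and 39 to 41 for endothelial-like and ductal-like cells. With each library left out, 0 to 1 genes were lower in fibroblast-like than in endothelial-like cells (1 without library 3) and 0 to 2 lower than in ductal-like cells (2 without library 1). At subcluster resolution 1.0 the adventitial set had 0 genes called higher in place of 3. In the HHIP/EDNRA set, with 0 in the main setting, 1 gene was higher with centred ratios, the automatic doublet threshold, libraries clustered separately, 1000 UMIs, resolution 0.3, resolution 1.0 and the looser adventitial rule; 1 was lower with centred ratios, TMM factors and resolution 1.0, and 2 at resolution 0.3. Leaving out each library gave 0 to 2 in both directions. Of lymphatic against blood vessel cells, 1 was higher in the main setting, 2 with TMM factors, 3 with no count minimum, 2 with libraries clustered separately and 2 at 1000 UMIs; 6 were lower in the main setting, 2 with a minimum of 50 counts, 3 with the automatic doublet threshold, 3 with libraries clustered separately and 1 at 1000 UMIs. Apart from the count minimum and the left-out libraries, which change what is tested, the cause was not tested. The median share of matrix UMIs, 10.8% in fibroblast-like, 1.18% in endothelial-like, 2.97% in mesothelial-like and 0.386% in ductal-like cells, moved to 11.6%, 0.982%, 3.02% and 0.320% at 1000 UMIs, to 10.9%, 1.01%, 2.94% and 0.366% with the automatic doublet threshold, and to 10.7% and 0.916% for the first 2 classes with libraries clustered separately. The adventitial comparison gave no value with the automatic doublet threshold or with libraries clustered separately, and comparisons left with under 2 libraries gave none. The pericyte and smooth muscle comparison was not run under the planned settings, since no such cluster was named. No paired analysis was possible because the library numbers are tied to no sample and the results come from no test.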
